A study of Homo sapiens with 6 samples.

Results

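The galectin genes LGALS1, LGALS2, LGALS3, LGALS4 and LGALS8, together with LGALS3BP, which encodes a galectin-binding glycoprotein, were examined in MHCC97H cells, an established human hepatocellular carcinoma line. The members were chosen by gene symbol with earlier results of these arrays known, among them their levels and their pattern by replicate number, and every probe set annotated to exactly 1 of the 6 symbols was kept. This gave 12 of the 54613 probe sets of the Affymetrix Human Genome U133 Plus 2.0 array, for 6 of the 19775 genes that had a probe set of a single symbol. Residual MHCC97H cells were heated at 47 °C and kept for 24 h with recombinant periostin (POSTN, a matricellular protein) at 100 ng/mL or without it at 0 ng/mL, and 3 arrays were hybridized for each condition. The control cells were heated too, so no unheated cells enter the comparison, and all 6 arrays come from a single cell line. The labels number the arrays 1, 2 and 3 in both conditions and do not say whether the numbers stand for separate cultures, so the p-values measure only the spread between these arrays.

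Galectins are small proteins that bind sugar chains ending in galactose. Made in the cytosol and released without a signal peptide, they cross-link glycoproteins and glycolipids at the cell surface and in the matrix, and inside cells they bind the sugars exposed on damaged endosomes and lysosomes. Galectin-1 (LGALS1) and galectin-2 (LGALS2) are pairs of identical subunits with 1 sugar-binding domain each, galectin-3 (LGALS3) joins 1 such domain to a collagen-like tail, and galectin-4 (LGALS4) and galectin-8 (LGALS8) carry 2 different domains in 1 chain. Galectin-4 is best known from the epithelium of the gut, galectin-1 and galectin-3 are widespread and often abundant in carcinoma cells, and LGALS3BP is a secreted, heavily glycosylated ligand of galectin-3 whose gene responds to interferon.

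LGALS4, LGALS3BP and LGALS2 were higher in both arrays numbered 1 than in the 4 others, and the 250 bases before their start sites are shown for that reason. The sequences are those of RefSeq on build GRCh38.p14, all on the minus strand, for LGALS4 at chr19:38812946-38813195, for LGALS3BP at chr17:78979924-78980173 and for LGALS2 at chr22:37580088-37580337. Capitals mark matches to any of 4 motifs, each searched on both strands. The motif of interferon-regulatory factors was spelled GAAANNGAA. That of GATA factors was spelled GATAAG. The other two were the letters TATAA, typical of a start site for RNA polymerase II, and CCAAT, which the factor NF-Y binds. No match overlapped another.
LGALS4: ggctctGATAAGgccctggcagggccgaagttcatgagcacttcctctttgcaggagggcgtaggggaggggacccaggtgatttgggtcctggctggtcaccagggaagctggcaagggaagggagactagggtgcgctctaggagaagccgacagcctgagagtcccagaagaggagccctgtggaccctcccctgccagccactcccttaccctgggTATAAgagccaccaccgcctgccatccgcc
LGALS3BP: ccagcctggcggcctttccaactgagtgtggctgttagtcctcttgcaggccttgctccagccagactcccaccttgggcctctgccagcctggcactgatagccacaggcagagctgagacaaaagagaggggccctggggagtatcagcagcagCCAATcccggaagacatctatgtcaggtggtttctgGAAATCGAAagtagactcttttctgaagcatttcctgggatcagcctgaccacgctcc
LGALS2: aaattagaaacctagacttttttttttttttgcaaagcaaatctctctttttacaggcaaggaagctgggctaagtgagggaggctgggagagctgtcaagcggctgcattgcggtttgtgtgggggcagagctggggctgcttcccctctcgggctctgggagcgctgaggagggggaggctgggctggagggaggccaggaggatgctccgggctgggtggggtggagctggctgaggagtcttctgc
The LGALS4 window held GATAAG at position -244 and TATAA at position -30 from the start, motifs found in 5.65% and 18.9% of the 35116 promoters of the table. The LGALS3BP window held CCAAT at position -94 and the interferon-type motif at position -58, found in 32% and 6.88% of promoters. The LGALS2 window matched none of the 4 motifs, and no motif was found in all 3 windows. These matches describe letters only, and the motifs were picked with the sequences in view. LGALS1 had no entry in the promoter table. LGALS1 and LGALS2 lie on the same chromosome, 22, with the 3 protein-coding genes GGA1, SH3BP1 and PDXP between them.

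Values are log2 signals of the MAS 5.0 algorithm, and the level of background was taken as 5.98, the 95th percentile of the mean log2 signal of 107 olfactory receptor probe sets, since the table holds no detection calls. By this level 9 of the 12 probe sets were above background on all 6 arrays and 1 on none. LGALS1 and the bright LGALS3 probe set stood at 13.29 or above on every array, whereas LGALS2 was below background on 4 of 6 arrays. Brightness differs between probe sets for reasons other than the amount of mRNA, so levels were compared between arrays and not between genes. Over the whole array the conditions were close: the median log2 signal was 5.86 to 5.95 on POSTN arrays and 5.80 to 5.87 on control arrays, and 47.7% to 49.7% of probe sets were above background on each of the 6. Every pair of arrays correlated at r = 0.912 to 0.923 over all probe sets. KRT8 and KRT18, keratins of simple epithelium, and the hepatoma marker AFP were above background on all 6 arrays, with AFP at 8.85 to 9.16. ALB, the gene of serum albumin, stood between 5.65 and 7.83, and the hepatocyte gene APOA1 and the epithelial marker EPCAM were near or below background. Markers of other cells were mixed. The fibroblast genes LUM (11.04 to 11.31), DCN (8.47 to 9.66) and COL1A1 (7.93 to 8.62) and the endothelial gene PECAM1 (9.79 to 10.54) were above background on all 6 arrays, and the T cell gene CD3E on 5. The leukocyte gene PTPRC, the endothelial gene CDH5 and the fibroblast genes COL1A2 and PDGFRB were above it on none.

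With POSTN, no galectin differed from control by more than the spread between arrays. None of the 12 probe sets passed limma's test after Benjamini-Hochberg adjustment over the array (adjusted p = 1 for each), and the same fit called 0 of 54613 probe sets (0%). At an unadjusted p under 0.05 there were 0 of the 12, against 3.02% of the array (1649 probe sets), and at the study's own thresholds, an unadjusted p under 0.05 with a fold change over 2 or under 0.5, 0 of the 12 against 2.56% (1398). In none of the 12 did the 3 POSTN arrays stand wholly above or below the 3 control arrays, which happened in 7.94% of all probe sets (4336). An unmoderated test of the same values after adjustment and the fit with replicate number as a block also called 0. Of the 12 probe sets, 6 had a higher mean with POSTN and 6 a lower one. Over the 10 with a mean above background, log2 fold changes ran between -0.086 and 0.24 with a median of -0.00087, and the median over all probe sets above background was 0.00038. Their 95% confidence intervals in the unpaired fit lay between a halving and a doubling, apart from those of LGALS4, whose lower bound was -1.01, and of LGALS8 210731_s_at, whose upper bound was 1.06. With replicate number as a block these intervals were -0.19 to 0.11 for LGALS4 and -0.50 to 0.99 for LGALS8 210731_s_at, and no call changed. Among the 1398 that met both of the study's criteria, 1353 had a mean at or below background and 45 above it.

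**Figure D1:**
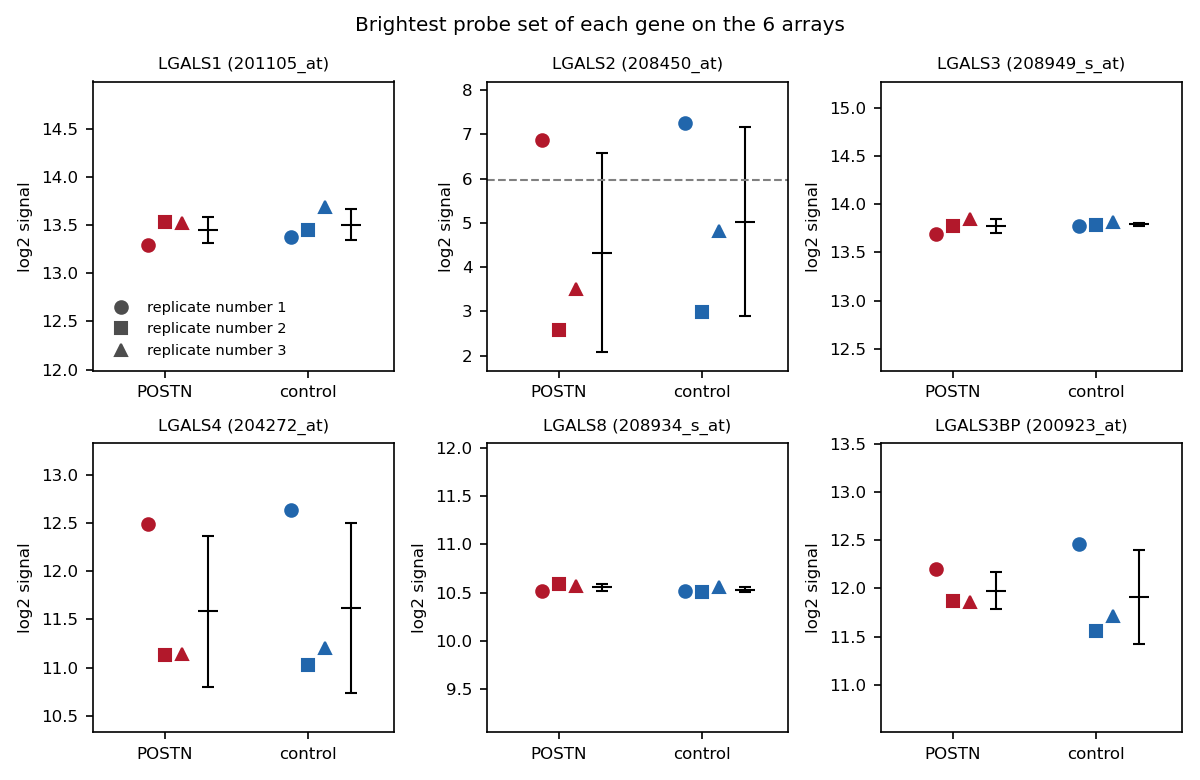
Log2 signal of the brightest probe set of each gene in the 3 POSTN arrays (red, left) and the 3 control arrays (blue, right), with the replicate number as the shape of the point, the mean and SD of each condition in black, and the background level of 5.98 dashed where it lies in view. LGALS4 was at 12.48 and 12.63 on the arrays numbered 1 and at 11.02 to 11.21 on the others, and POSTN and control arrays of the same number lay close together.

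LGALS1, the gene of galectin-1, had log2 signals of 13.29, 13.53 and 13.52 on POSTN arrays 1, 2 and 3, against 13.37, 13.45 and 13.68 on the control arrays of the same numbers. The groups overlapped, with the lowest value on a POSTN array and the highest on a control array. The means were 13.45 ± 0.13 with POSTN and 13.50 ± 0.16 in control cells (SD, n = 3 each), a log2 fold change of -0.055 ± 0.11 (SE, 95% interval -0.29 to 0.18). A doubling or a halving lies outside that interval.

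LGALS3, the gene of galectin-3, was nearly the same on every array in its bright probe set, 208949_s_at. It stood at 13.70, 13.78 and 13.85 with POSTN, against 13.77, 13.78 and 13.81 without, and the values of the controls lay inside those of the POSTN arrays. The means of 13.77 ± 0.08 with POSTN and 13.79 ± 0.02 in controls (SD, n = 3 each) gave a log2 fold change of -0.016 ± 0.077 (SE, 95% interval -0.19 to 0.16). The other probe set of the gene, 1557197_a_at, was above background on no array, so its values have no firm meaning as levels. It read 5.49, 5.55 and 3.41 on POSTN arrays, against 1.97, 2.70 and 3.73 on control arrays, and POSTN arrays 1 and 2 were the high ones while POSTN array 3 read below control array 3. This 4.04-fold difference (log2 2.01 ± 0.92 SE, 95% interval -0.04 to 4.07) had an unadjusted limma p of 0.054 and an adjusted p of 1. It met the study's thresholds without POSTN array 3 (log2 2.72) or without control array 3 (log2 2.48). With all 6 arrays it did so in limma without the intensity trend of the variance, and not in the fit with it.

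LGALS4, the gene of the gut galectin-4, had log2 signals of 12.48, 11.13 and 11.14 on POSTN arrays, against 12.63, 11.02 and 11.21 on control arrays. In both conditions the array numbered 1 was the high one, the other 4 arrays lay close together, and the conditions overlapped. The means were 11.58 ± 0.78 with POSTN and 11.62 ± 0.88 in controls (SD, n = 3 each). The log2 fold change of -0.038 had an SE of 0.44 and a 95% interval of -1.01 to 0.94 in the unpaired fit. With replicate number as a block the SE was 0.067 and the interval -0.19 to 0.11. POSTN minus control was -0.15 for number 1, 0.11 for number 2 and -0.07 for number 3, and so changed sign between the numbers.

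LGALS2, the gene of galectin-2, read 6.86, 2.59 and 3.52 on POSTN arrays, against 7.26, 3.0 and 4.83 on control arrays. Only the 2 arrays numbered 1 were above background, and the other 4 values have no order that can be read as a level. The fold change on the log2 scale was -0.70 ± 1.29 (SE, 95% interval -3.57 to 2.16). For number 1, where both arrays were above background, POSTN minus control was -0.40.

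LGALS8, the gene of galectin-8, which marks damaged endosomes and bacteria-containing vacuoles for autophagy, had 6 probe sets. The brightest, 208934_s_at, read 10.52, 10.59 and 10.56 with POSTN, against 10.52, 10.51 and 10.56 without, a log2 fold change of 0.029 ± 0.093 (SE). Its values overlapped and spanned 0.080 on the log2 scale over all 6 arrays, the narrowest range of the 12. Probe set 208936_x_at, whose suffix marks probes that may also match other transcripts, gave 0.014 ± 0.11, 208933_s_at gave -0.086 ± 0.14 and 210732_s_at gave -0.077 ± 0.14 (SE). The dimmer 208935_s_at read 9.14, 8.59 and 8.89 on POSTN arrays, against 9.07, 8.45 and 8.48 on control arrays, a log2 fold change of 0.21 ± 0.21 (SE). POSTN minus control was positive for each number in this probe set (0.072, 0.14 and 0.41), and the paired fit gave an SE of 0.13, a 95% interval of -0.070 to 0.48 and an adjusted limma p of 0.966. The dimmest, 210731_s_at, read 6.42, 6.90 and 6.44 with POSTN, against 6.51, 6.71 and 5.81 without, where control array 3 alone was below background, and gave 0.24 ± 0.37 (SE). The 6 probe sets thus pointed both ways, 4 above 0 and 2 below, and each estimate was within 1 SE of 0 in the unpaired fit. The antisense gene LGALS8-AS1 (234611_at) read 6.83, 6.66 and 6.69 on POSTN arrays, against 6.85, 6.44 and 5.97 on control arrays, and did not differ beyond its SE (0.31 ± 0.34).

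LGALS3BP, the gene of the secreted galectin-3 ligand, had log2 signals of 12.20, 11.87 and 11.86 on POSTN arrays, against 12.46, 11.55 and 11.72 on control arrays. The 3 POSTN values lay inside the range of the controls. The means were 11.98 ± 0.19 with POSTN and 11.91 ± 0.48 in controls (SD, n = 3 each), a log2 fold change of 0.066 ± 0.21 (SE, 95% interval -0.39 to 0.52). POSTN minus control was -0.26 for number 1, 0.31 for number 2 and 0.15 for number 3. Without control array 1 the log2 fold change was 0.34, and without both arrays numbered 1, a setting chosen after seeing the data, it was 0.23. Both passed an unadjusted p under 0.05 in limma, with adjusted p = 0.988 without control array 1 and adjusted p = 0.997 without both arrays numbered 1.

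**Figure D2:**
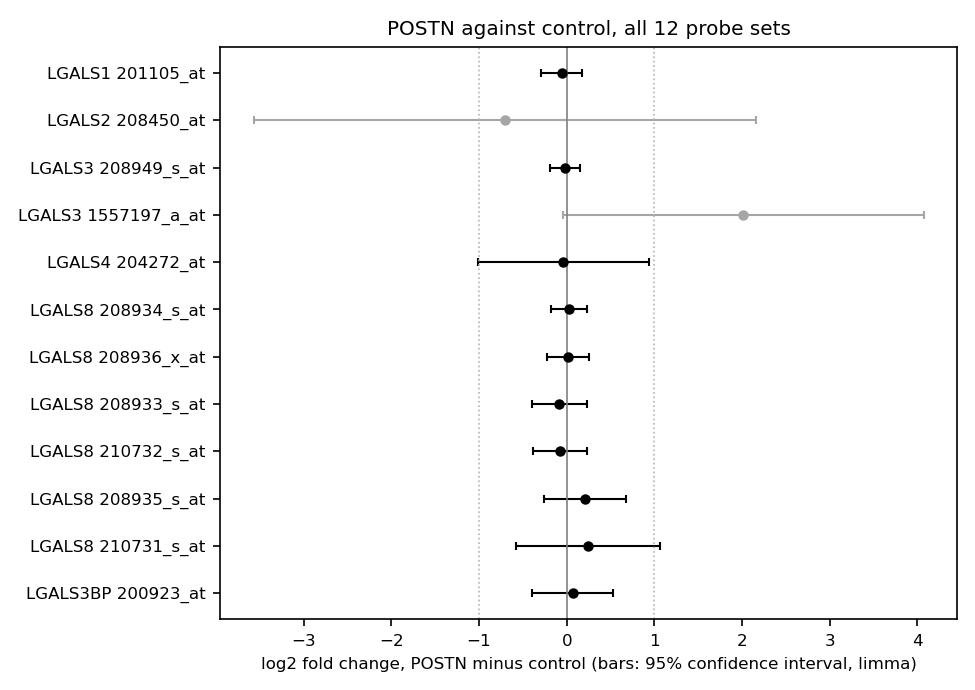
Log2 fold change of POSTN over control for each of the 12 probe sets (points) with the 95% confidence interval of the unpaired limma fit (bars). Points and bars are gray where the mean over all arrays was at or below background, and dotted lines mark a doubling and a halving. Every interval includes 0, and those of LGALS2 (-3.57 to 2.16) and of LGALS3 1557197_a_at (-0.04 to 4.07), the probe sets below background, are the widest.

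LGALS4, LGALS3BP and LGALS2 were higher, and LGALS1 and LGALS3 slightly lower, on the arrays numbered 1 than on the others, in POSTN and in control cells alike. The members were chosen with this pattern known, so the values are given as a description with no test, and what the numbers stand for is not in the labels. LGALS4 averaged 12.56 on the arrays numbered 1, against 11.12 on the 4 others, a log2 difference of 1.43 (2.70-fold). The difference was 1.35 within the POSTN arrays and 1.52 within the control arrays, each of 1 array against 2. Its sign within each condition follows from both arrays numbered 1 standing above the 4 others. LGALS3BP averaged 12.33 on the arrays numbered 1, against 11.75 on the others (0.58, 1.49-fold), with 0.34 within POSTN and 0.82 within control. LGALS2 averaged 7.06 on the arrays numbered 1, which is 1.08 above the background level, against 3.48 on the others, which is below it. The log2 difference of 3.58 for LGALS2 is therefore no measured fold, and it was 1.55 once 50 was added to every linear signal.

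Of the LGALS8 probe sets, 3 were higher on both arrays numbered 1 than on the 4 others and 3 overlapped with them. Those that were higher differed by 0.50 for 208935_s_at, 0.26 for 208933_s_at and 0.22 for 210732_s_at, while the brightest probe set differed by less than its own narrow range. The probe sets of LGALS8 thus disagreed on this difference, and which transcripts each one reads was not examined. The 2 brightest galectin genes went the other way, by small amounts. LGALS1 was lower on both arrays numbered 1 than on the 4 others (-0.21 on the log2 scale), as was LGALS3 (-0.071 in its bright probe set, -0.0080 after quantile normalization). So LGALS1 and LGALS2, both on chromosome 22, differed in opposite directions by replicate number.

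Such separation was common on these arrays. Both arrays numbered 1 stood above the 4 others in 6 of the 12 probe sets, against 13.6% of the whole array (7419), and below them in 2, against 12.7% (6932). Among probe sets with a mean above background the counts were 5 of 10 above, against 21.2%, and 2 of 10 below, against 18.6%. Of the 10, only LGALS4 was higher on the arrays numbered 1 by at least 1 log2 unit, against 1.77% of the 25320 probe sets above background (448 higher by that much). The size of the difference for number 1 had a median of 0.21 and a 95th percentile of 0.84 over those probe sets, so that LGALS4 lay past the 95th percentile and LGALS3BP, LGALS1 and LGALS3 did not. The arrays numbered 2 stood outside the range of the others in 3 of the 12 probe sets, against 15.5% of the array, and those numbered 3 in 1, against 14.9%. LGALS4 was among those of number 2, with 11.13 (POSTN) and 11.02 (control) there, against 11.14 and 11.21 on the arrays numbered 3. Its log2 difference of -0.79 from the other arrays counts the high arrays numbered 1 among them, and number 3 differed by -0.64 in the same way. LGALS8 210731_s_at was highest on the arrays numbered 2 (0.51).

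**Figure D3:**
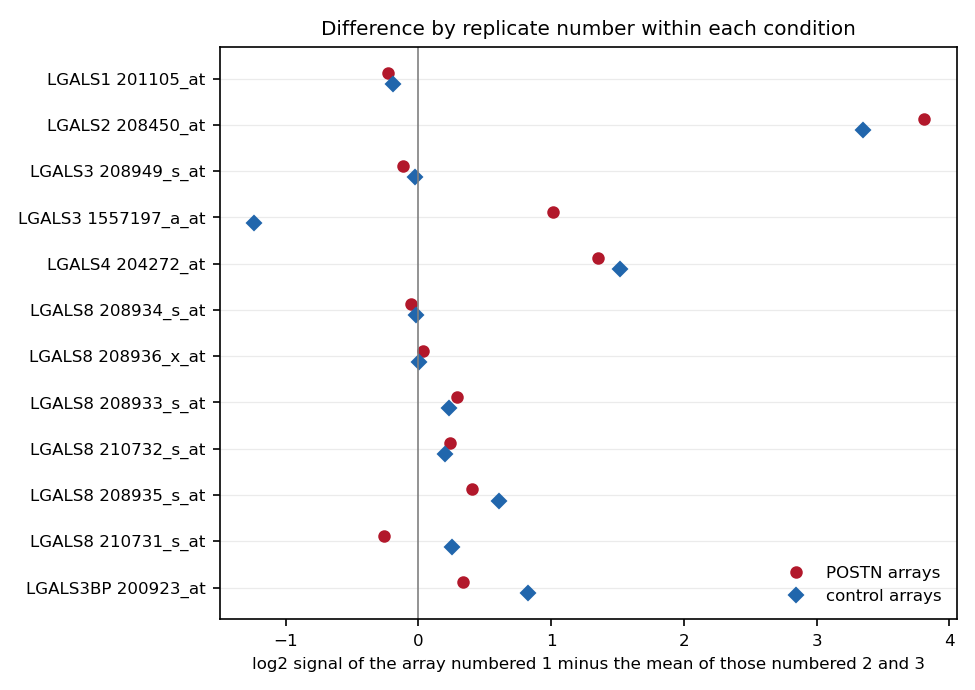
Log2 signal of the array numbered 1 minus the mean of the arrays numbered 2 and 3, within the POSTN arrays (red circles) and within the control arrays (blue diamonds), for each of the 12 probe sets. LGALS2 (3.81 and 3.35) and LGALS4 (1.35 and 1.52) lie farthest to the right in both conditions, and the points of LGALS3 1557197_a_at, below background, lie on opposite sides of 0.

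By its brightest probe set, LGALS4 was the only member gene above background with a range over 1 log2 unit, so genes with a like pattern were sought for it alone, among 1685 genes of the same kind. The highest Pearson correlations over the 6 arrays were those of CYB5A (0.999), which encodes the electron carrier cytochrome b5, LINC01133 (0.999), a long noncoding RNA, CIDEC (0.999), a protein of lipid droplets, VSIG10L (0.998) and TSPAN8 (0.997), a tetraspanin of epithelial cells. The lowest were those of the amino acid transporter SLC38A5 (-0.998), RIPK2 (-0.998), the kinase that acts below the NOD receptors, and MLLT11 (-0.998). CYB5A read 12.20, 11.30 and 11.29 with POSTN, against 12.28, 11.25 and 11.38 without, and TSPAN8 read 11.77, 10.65 and 10.59 with POSTN, against 11.82, 10.46 and 10.72 without. In all 8 genes both arrays numbered 1 stood outside the range of the 4 others, above it in 5 and below it in 3, which choosing them by their correlation with LGALS4 on these arrays fixes. Among the galectins themselves the correlation with LGALS4 was 0.93 for LGALS3BP, -0.68 for the bright LGALS3 probe set and -0.75 for LGALS1, over the same 6 arrays. The LGALS8 probe sets went both ways, with -0.57 for the brightest, 0.91 for 210732_s_at, 0.85 for 208935_s_at, 0.83 for 208933_s_at, 0.18 for 208936_x_at and -0.053 for 210731_s_at. For LGALS2 it was 0.94, with 4 of its 6 values below background.

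**Figure D4:**
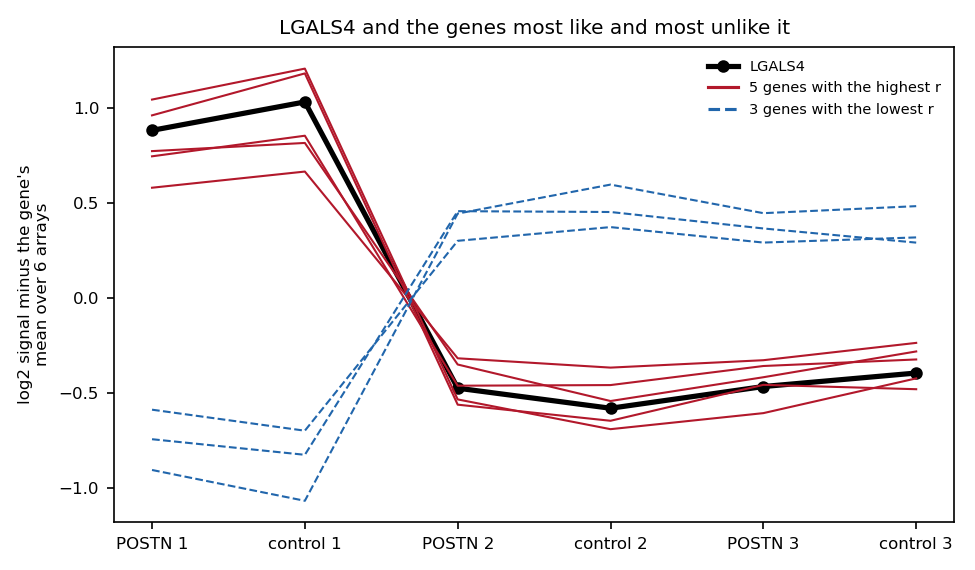
Log2 signal minus the mean of each gene over the 6 arrays, for LGALS4 (black), the 5 genes with the highest Pearson r with it (red) and the 3 with the lowest (blue, dashed); lines join the values of a gene and stand for no order in time. Both arrays numbered 1 stand apart from the 4 others in all 8 genes, as their choice by likeness to LGALS4 fixes.

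Of the 3 markers of the gut epithelium, where galectin-4 is best known, 2 differed by replicate number as well. CDH17, an intestinal cadherin, read 12.30, 11.67 and 11.65 with POSTN, against 12.33, 11.46 and 11.64 without, and VIL1, the microvillar protein villin, read 9.16, 8.43 and 8.39 with POSTN, against 9.0, 7.79 and 8.37 without. Both were thus highest on the arrays numbered 1, while CDX2, the transcription factor of the gut, overlapped and was near or below background. The summed signal of the 3 genes was 12.46 to 12.47 on the log2 scale on the arrays numbered 1, against 11.58 to 11.82 on the others. That sum is mostly the signal of CDH17. Of the 8 hepatoma and epithelial markers, 2 were higher on both arrays numbered 1 (ALB and SERPINA1) and KRT18 was lower, with a summed log2 signal of 15.48 to 15.60 on the arrays numbered 1, against 15.61 to 15.74 on the others. That sum is mostly keratin signal, with KRT18 at 14.84 to 15.14 and KRT8 at 13.86 to 14.13. It says little about ALB, SERPINA1 or AFP. Of the 7 stellate cell and fibroblast markers 1 was higher and 2 lower, with a summed log2 signal of 11.50 to 11.72 on the arrays numbered 1, against 11.75 to 11.89 on the others. Of the 3 endothelial markers PECAM1 was higher, with a summed log2 signal of 10.35 to 10.59 on the arrays numbered 1, against 9.82 to 10.20 on the others, and both measured leukocyte markers overlapped. Over all genes, 3230 of 19775 were higher and 3024 lower on both arrays numbered 1. Among probe sets above background these were 21.2% and 18.6%. SERPINA1 was below background on all 4 other arrays and ALB between 5.65 and 6.13 there, so no fold is given for them. The part of these cell features in the levels of LGALS4 and LGALS3BP was not tested.

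The other galectins were mostly dim. Of 13 further galectin and galectin-related genes, 6 had a probe set of their own, and the median log2 fold change of these was 0.095, against 0.00015 over all 19775 genes. Only LGALSL, a galectin-related gene, was above background on all 6 arrays, at 9.71, 9.31 and 9.40 with POSTN, against 9.71, 9.35 and 9.57 without (226188_at, log2 fold change -0.070 ± 0.15 SE). Its dimmer probe set 219998_at was above background on all 6 arrays too (log2 fold change 0.0079 ± 0.19 SE). By replicate number the probe sets disagreed, with number 1 differing by 0.30 in 226188_at and -0.15 in 219998_at. LGALS9, the gene of the immune regulator galectin-9, read 6.85, 7.72 and 6.83 with POSTN, against 7.26, 6.92 and 3.71 without. Its difference of 1.17 ± 0.80 (SE) came with 1 low value, that of control array 3, which alone was below background. LGALS12, LGALS13 and CLC, the gene of galectin-10, were above background on no array.

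The enzymes and transporters that make or mask galactose-ended sugars were represented by 15 genes, all of them measured. With POSTN, 8 had a higher and 7 a lower mean, with a median log2 fold change of 0.0017, and limma called 0 of them, also at an unadjusted p under 0.05. MGAT5, which adds the branch that galectin-3 favours, differed by -0.14 ± 0.086 (SE), and B3GNT2, which extends chains with poly-N-acetyllactosamine, by -0.20 ± 0.14 (SE). By replicate number, 7 were higher on both arrays numbered 1 and 1 was lower, while over all genes these were 3230 and 3024 of 19775. Among probe sets above background, as 12 of the 15 were on all 6 arrays, the shares were 21.2% and 18.6%. MGAT4A, 1 of the 7, was above background on only 2 arrays. MAN2A2, a mannosidase that trims the sugar chain, was higher by 0.85, ST6GAL1, which caps galactose with sialic acid and so masks it from some galectins, by 0.59, and MGAT4B, another branching enzyme, by 0.47.

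The glycoproteins that galectins are known to bind, such as integrins, laminins and lysosomal membrane proteins, were above background for all 15 genes of the list. With POSTN, 8 had a higher and 7 a lower mean, limma called 0 of them, 0 also at an unadjusted p under 0.05, and the median log2 fold change was 0.028. ITGA5, the fibronectin receptor chain, had the largest at 0.33 ± 0.23 (SE), and LAMC1, a laminin chain, the lowest at -0.10 ± 0.11 (SE). By replicate number none was higher on both arrays numbered 1 and 6 were lower, where 21.2% and 18.6% of all probe sets above background were. These were the receptor genes EGFR (-0.83), ITGA5 (-0.51), NRP1 (-0.43), ITGB1 (-0.32) and CD44 (-0.28), and the mucin MUC1 (-0.76). The partners of galectins at damaged endosomes and lysosomes had 6 of 7 genes measured, 1 with a higher and 5 with a lower mean under POSTN, a median log2 fold change of -0.051, and 0 called, 0 also at an unadjusted p under 0.05. TRIM16, a ubiquitin ligase that works with galectin-3, differed by -0.12 ± 0.12 (SE), and CALCOCO2, the autophagy receptor that galectin-8 recruits, by -0.047 ± 0.096 (SE). By replicate number 3 were higher and 1 was lower on both arrays numbered 1, against 21.2% and 18.6% of all probe sets above background. Among the autophagy receptors, SQSTM1 was higher by 0.52 and CALCOCO2 by 0.17, and TAX1BP1 was lower (-0.29). TFEB, a transcription factor of lysosomal genes, was the other one higher, and was above background on 1 array.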

How the data were processed

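The study hybridized RNA of heated MHCC97H cells to Affymetrix Human Genome U133 Plus 2.0 arrays. The deposited values are log2 signals, which the authors computed by MAS 5.0 using affy in R (versions not given in the sources used here). All 6 arrays were on the same scale, with equal 2% trimmed means of the linear signal. Deposited values were used unchanged, and control probe sets were left out. Probe sets were named through the platform annotation: 41091 had 1 symbol, 1801 several and 11721 none, and no probe set of several symbols listed a member. Conditions were compared with limma 3.58.1 in R 4.3.3 (moderated variances with an intensity trend, Benjamini-Hochberg adjustment over 54613 probe sets, threshold 0.05), which was first tested on simulated data. With 3 arrays against 3, an exact permutation test cannot go below 0.10. For each gene the brightest probe set is the one with the highest mean over 6 arrays. Differences by replicate number are the mean of both arrays of a number minus the mean of the 4 others. The members and gene lists were chosen with earlier results of these data known. All probe sets of the members are named, and from each list up to 3 of the largest differences in each direction among genes above background, plus genes whose role bears on galectins, which were chosen after their values were seen.

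The replicate numbers were checked for pairing by correlating deviations from the condition mean. Same-numbered arrays correlated at 0.529, 0.235 and 0.239 over probe sets above background (0.088, 0.034 and 0.025 over all). Above background, POSTN array 3 with control array 2 gave 0.201, and POSTN array 2 with control array 3 gave 0.150. An array numbered 1 with one numbered 2 or 3 gave -0.36 to -0.30. The deviations of the 3 arrays of a condition sum to 0, so the 0.529 of number 1 brings these negative values with it. They are no separate evidence. The data thus set number 1 apart but hardly tell number 2 from number 3, and the labels state no pairing. The main fit used condition only, and replicate number entered as a block in an alternative fit. No 2 arrays held identical values. The number of arrays limits the precision: the median SE of a log2 fold change was 0.18 above background and 0.55 over all probe sets. Alternatives were quantile normalization, centring on the median, an offset of 50, a fit with no trend, probe sets above background only, array weights, the methods' t-test (log2 signals, then linear ones), the replicate block, fits without each single array, and, chosen after seeing the data, leaving out both arrays numbered 1.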

Additional observations from a re-analysis of the deposited data

How the results depend on the processing

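Under the alternatives, 170 of 190 log2 fold changes of the 12 probe sets kept their direction and 20 changed it, none of which met the study's thresholds. Some alternatives change only the variance or the probe sets fitted, and leave each fold change as it was. These are the fit with no trend, the replicate block, the t-test on log2 signals and the fit above background only. Their directions could not change, and they are counted among the 170. After quantile normalization LGALS3 208949_s_at was at 0.016, and after centring LGALS8 208934_s_at was at -0.022 and 208936_x_at at -0.038. Without both arrays numbered 1, an alternative chosen after seeing the data, LGALS3 208949_s_at was at 0.015, LGALS4 at 0.017 and LGALS3BP at 0.23. Leaving out 1 array at a time gave -0.12 to 0.035 for LGALS1, -1.97 to 0.41 for LGALS2, -0.053 to 0.024 for LGALS3 208949_s_at, -0.49 to 0.47 for LGALS4 and -0.11 to 0.34 for LGALS3BP. It gave -0.18 to 0.011 for LGALS8 208933_s_at, -0.028 to 0.068 for 208936_x_at and -0.026 to 0.43 for 210731_s_at. The replicate block changed no call: 0 probe sets were called (lowest adjusted p = 0.25) and 1463 met the study's thresholds, while the SE of LGALS4 was 0.067 with the block. The methods' t-test called 0 once p-values were adjusted, and 1139 met those thresholds (1067 on linear values), against 1725 with array weights. The count at the study's thresholds was 14 with an offset of 50, which shrinks the changes of dim probe sets, and 49 in a fit of only the probe sets above background, to which 45 of the 1398 belonged. Among the members it was 1 without the trend and 0 to 1 when an array was left out, each time LGALS3 1557197_a_at, below background. Of 54 differences of number 1 from the other arrays, 50 stayed within 1 SD. LGALS2 was at 1.55 with the offset, LGALS3 208949_s_at at -0.0080 after quantile normalization and -0.11 to -0.033 with an array left out, and after quantile normalization 0 members were outside the range on the arrays numbered 3, against 1 as deposited. LGALS2 and LGALS3 1557197_a_at lie too near background to be ranked.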
